A study of Mus musculus with 14 samples.

Results

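LIM homeobox genes encode transcription factors with paired LIM domains and a homeodomain, and H3K27me3 was measured here at 10 of them: Lhx1, Lhx2, Lhx3, Lhx4, Lhx5, Lhx6, Lhx8, Lhx9, Isl1 and Isl2. Members were the Cut&Tag peaks of the deposited table that lie within 10 kb of the RefSeq gene body of these genes, which gave 105 of 74458 peaks. The genes lie on 7 chromosomes, with Lhx4 and Lhx9 on chromosome 1, Lhx2, Lhx3 and Lhx6 on chromosome 2, Lhx8 on chromosome 3, Lhx5 on chromosome 5, Isl2 on chromosome 9, Lhx1 on chromosome 11 and Isl1 on chromosome 13. Of the 105 peaks, 66 overlap a gene body and 39 lie beside one, and 4 also overlap another protein-coding gene.

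The LIM domains of these factors bind the cofactor Ldb1, which joins them into larger complexes, and the homeodomain binds DNA rich in TAAT. Combinations of the factors specify neuron classes in the spinal cord and forebrain, and single members are needed for the pituitary, eye, limb, gonad, heart, kidney or pancreas. In pluripotent cells such developmental regulators are held silent by Polycomb group complexes, of which PRC2 trimethylates lysine 27 of histone H3 (H3K27me3).

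Cut&Tag directs the transposase Tn5 to an antibody on chromatin, so that adapters are inserted close to the mark. All cells were G4 mouse embryonic stem cells (mESCs), which come from a cross of 129/Sv and C57BL/6 and were kept with leukaemia inhibitory factor on CD1 feeder cells. CRISPR-Cas9 had removed an anchor of long-range Polycomb loops, which was the Hoxa cluster on chromosome 6 (Hoxa deletion, 3 libraries), the stretch around Wnt6 on chromosome 1 (Wnt6 deletion, 2 libraries) or that around Hmx1 on chromosome 5 (Hmx1 deletion, 2 libraries), as homozygous deletions per the study. The table has no unedited mESCs, so libraries of a deletion were set against all libraries of the others, and the question was whether H3K27me3 at the LIM homeobox genes differed with the anchor removed. Deletions were made as clones, the labels name none, and a deletion and its clone cannot be told apart. The table holds fewer Wnt6 and Hmx1 libraries than the study's stated replicates per clone. The labels do not say that libraries came from separate cultures, and p-values then measure only the spread between these libraries.

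Library totals ran from 6016500 to 36563541 counts, and the 105 peaks held between 0.443% and 0.473% of them. In each deletion a run of peaks over the labelled locus was emptied, with 46 peaks in the Hoxa, 34 in the Wnt6 and 11 in the Hmx1 deletion. Among genes that pluripotent cells transcribe, 7 of 8 had a peak nearby, with a median level of 7.14 CPM (the count as a rate of its library total) per kb of peak, below the median of 10.9 over all 16999 protein-coding genes with a peak within 10 kb. For feeder fibroblast genes, 7 of 8 had peaks, with a median of 29.4, and their summed level overlapped between the deletions (35.2 to 37.3 in the Hoxa, 34.1 to 38.1 in the Wnt6 and 37.2 to 38.7 in the Hmx1 libraries). The summed level of the pluripotency genes did not overlap between the deletions (15.7 to 16.3 in the Hoxa, 13.3 to 13.8 in the Wnt6 and 14.2 to 14.7 in the Hmx1 libraries). Esrrb alone brought 22 peaks to this sum and the others 1 to 5 each. How often sums of other genes separate in this way is not given here, so the separation is a description. Pou5f1 (6.18 CPM per kb) and Nanog (5.73) were among the weakly marked pluripotency genes, whereas Sox2 (18.5) and Esrrb (17.7) lay above the median of all genes.

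Promoter sequences of 9 of the 10 genes were found in RefSeq (GRCm38.p6), with 13 listed starts. Each sequence spans 250 bases before the start to 50 after it. CpG dinucleotides, around which PRC2 is known to be recruited in mESCs, were counted in each, and the 13 promoters held a median of 19 CpGs against 7 over all 32851 promoters of the table. Their median GC content was 65.7% against 52.7%, and the median ratio of observed to expected CpGs was 0.68 against 0.38. Counts ran from 4 at Lhx8 to 37 at Isl1, and 11 of the 13 reached the median of all promoters. Of the 13 starts, 9 lay inside a peak, against 39.9% of all starts. Over the whole table, promoters whose start lay in a peak had a median of 21 CpGs and the others a median of 4.

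The promoters of 4 genes are shown for the ends of this range and for how they relate to peaks, 5′ to 3′ on the strand of the gene, with CpGs in capitals. They are Isl1 (chr13:116309639-116309938, minus strand, 37 CpGs, start in a peak), Isl2 (chr9:55540899-55541198, plus strand, 23 CpGs, wholly covered by the strongest peak of all 10 genes), Lhx8 (chr3:154330511-154330810, minus strand, 4 CpGs, start in a peak) and Lhx9 (chr1:138842395-138842694, minus strand, 6 CpGs, start in no peak).
Isl1: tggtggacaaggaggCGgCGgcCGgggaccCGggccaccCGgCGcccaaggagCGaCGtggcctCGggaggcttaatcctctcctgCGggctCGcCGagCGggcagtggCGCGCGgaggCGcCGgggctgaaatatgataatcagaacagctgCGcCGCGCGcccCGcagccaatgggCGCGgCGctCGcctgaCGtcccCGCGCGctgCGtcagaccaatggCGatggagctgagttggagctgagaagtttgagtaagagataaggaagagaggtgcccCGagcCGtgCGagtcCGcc
Isl2: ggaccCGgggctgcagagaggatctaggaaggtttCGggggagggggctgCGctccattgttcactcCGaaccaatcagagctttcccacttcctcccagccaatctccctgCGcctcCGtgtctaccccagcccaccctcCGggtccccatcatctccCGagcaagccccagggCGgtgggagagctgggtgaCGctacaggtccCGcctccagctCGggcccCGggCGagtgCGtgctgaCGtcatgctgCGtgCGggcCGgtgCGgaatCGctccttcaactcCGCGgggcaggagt
Lhx8: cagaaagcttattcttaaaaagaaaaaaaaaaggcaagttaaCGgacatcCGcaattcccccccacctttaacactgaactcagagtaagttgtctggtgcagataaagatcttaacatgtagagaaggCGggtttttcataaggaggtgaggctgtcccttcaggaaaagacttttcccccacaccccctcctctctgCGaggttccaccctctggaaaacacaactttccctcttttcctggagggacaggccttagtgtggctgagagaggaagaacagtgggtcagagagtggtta
Lhx9: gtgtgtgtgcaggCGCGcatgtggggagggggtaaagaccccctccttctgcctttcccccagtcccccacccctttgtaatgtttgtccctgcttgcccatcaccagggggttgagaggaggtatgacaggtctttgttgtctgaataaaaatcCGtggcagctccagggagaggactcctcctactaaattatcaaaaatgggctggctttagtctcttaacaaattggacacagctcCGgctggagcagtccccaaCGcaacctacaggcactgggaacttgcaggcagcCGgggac
Capitals are many in the Isl1 run and few in those of Lhx8 and Lhx9. Lhx8 had its start in a peak of 61.8 CPM per kb and Isl1 in one of 83.4 CPM per kb. The palindrome TAATTA, a core to which many homeodomains bind, was in 0 of the 13 promoters and in 5.29% of all promoters.

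All 10 LIM homeobox genes were strongly marked with H3K27me3 in every library. Their mean level per gene, the CPM of its peaks per kb of peak after TMM scaling (trimmed mean of M values), ran from 35.0 at Lhx4 to 74.0 at Lhx6, a range of 2.12-fold, with a median of 54.2 against 10.9 over all genes. The lowest, Lhx4, was at percentile 87.0 of all genes and the highest, Lhx6, at percentile 99.1, and 6 of the 10 lay above the 95th percentile (51.5 CPM per kb). The genes also had more peaks, with a median of 9.5 peaks and 7.45 kb of peak against 2 peaks and 1.78 kb over all genes. A lower level in all cells and loss of the mark from some of the cells cannot be told apart in such bulk libraries.

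**Figure D1:**
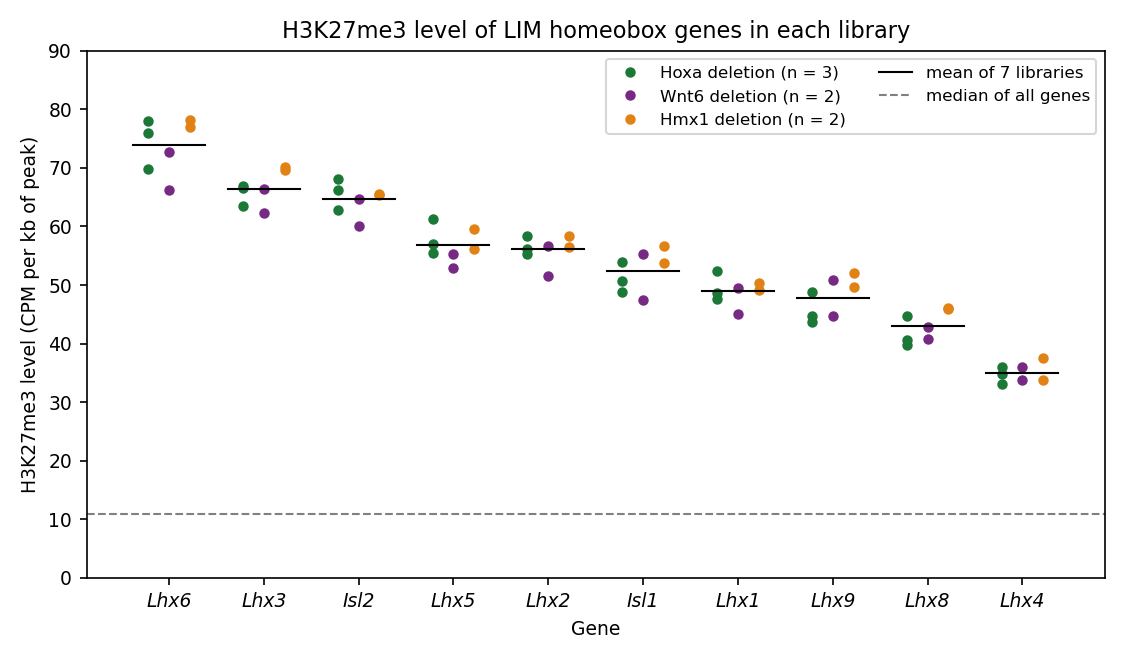
H3K27me3 level of each LIM homeobox gene in each library, in CPM per kb of peak (vertical axis, linear, from 0), with genes ordered by mean (horizontal axis). Points are libraries, coloured by deletion, solid bars are means of 7 libraries and the dashed line is the median of all genes (10.9). All points lie above 33. The colours overlap at each gene except that both Hmx1 points are the highest at Lhx3 and Lhx8 and both Wnt6 points the lowest at Lhx5. None of these differences passed in edgeR (adjusted p 0.417, 0.344 and 0.874). The share of all genes whose libraries separate in this way is not given here, so the separations are a description.

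Lhx3, Lhx4, Isl1 and Isl2 act in motor neurons. Lhx3, which also directs pituitary development, had 6 peaks and 66.8, 63.4 and 66.6 CPM per kb in the Hoxa libraries, 66.3 and 62.2 in the Wnt6 libraries and 69.6 and 70.2 in the Hmx1 libraries, which were the highest. Its close relative Lhx4 had 15 peaks and 36.0, 34.8 and 33.0 CPM per kb in the Hoxa, 36.0 and 33.8 in the Wnt6 and 33.8 and 37.5 in the Hmx1 libraries. Per kb of peak, Lhx4 lay far below Lhx3 in every library, and ranked last of the 10 in all 7. Its CPM summed over peaks, not divided by kb, was at percentile 98.3 of all genes, against 97.6 for Lhx3.

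Isl1, which marks motor neurons, second heart field progenitors and pancreatic islets, had 54.0, 50.7 and 48.7 CPM per kb in the Hoxa, 55.3 and 47.4 in the Wnt6 and 53.8 and 56.6 in the Hmx1 libraries. Its relative Isl2 had 68.0, 62.8 and 66.2 CPM per kb in the Hoxa, 64.7 and 60.0 in the Wnt6 and 65.4 and 65.6 in the Hmx1 libraries. Isl2 was above Isl1 in every library, and the deletions overlapped at both genes.

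Lhx2, Lhx6, Lhx8 and Lhx9 include the forebrain members. Lhx6, which migrating cortical interneurons need, had 78.0, 69.9 and 75.9 CPM per kb in the Hoxa, 72.7 and 66.2 in the Wnt6 and 78.2 and 77.0 in the Hmx1 libraries, and ranked first of the 10 in all 7. Lhx8, which acts in cholinergic neurons of the basal forebrain and in oocytes, had 44.7, 40.6 and 39.8 in the Hoxa, 42.7 and 40.8 in the Wnt6 and 46.1 and 46.0 in the Hmx1 libraries. Both Hmx1 libraries were above the other 5 at Lhx8.

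Lhx2, a regulator of eye and cortex, had the most peaks of the 10 genes (20 peaks over 14.7 kb) and levels from 51.5 to 58.4 CPM per kb. Lhx9, a close relative of Lhx2 that the gonad needs, had 48.8, 44.8 and 43.8 CPM per kb in the Hoxa, 50.8 and 44.8 in the Wnt6 and 49.6 and 52.0 in the Hmx1 libraries. The Hoxa libraries were on the lower side at Lhx9 but overlapped the others.

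Lhx1, required in the head organizer and kidney, ranged from 45.0 to 52.3 CPM per kb, and its relative Lhx5, a forebrain regulator, from 52.8 to 61.2 CPM per kb. At Lhx5 both Wnt6 libraries (55.3 and 52.8) lay below the other 5 libraries, of which the lowest was at 55.5.

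The order of the 10 genes by mean level per kb of peak was Lhx6, Lhx3, Isl2, Lhx5, Lhx2, Isl1, Lhx1, Lhx9, Lhx8 and Lhx4. By CPM summed over the peaks of a gene the order differed. Lhx2 (percentile 99.8 of all genes) was then the highest and Lhx8 (percentile 94.9) the lowest. Neighbours were compared within libraries, since libraries moved up and down together. Lhx3 and Isl2 (mean log2 difference in level 0.04, SD 0.05, n = 7), Lhx5 and Lhx2 (0.02, SD 0.03) and Lhx1 and Lhx9 (0.04, SD 0.07) did not differ beyond that spread. In each of the other 6 neighbouring pairs the higher gene was higher in 7 of 7 libraries, from 0.10 (SD 0.05) between Isl1 and Lhx1 to 0.30 (SD 0.07) between Lhx8 and Lhx4. Lhx8 and Lhx4 were also the only neighbours whose ranges over the 7 libraries did not overlap. With peaks counted in the gene body alone, or within 50 kb, Lhx6 stayed first and Lhx3 second. At 50 kb Lhx8 (30.0 CPM per kb) fell behind Lhx4 (34.0 CPM per kb) into last place.

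Within each gene the spread over the 7 libraries was small, with coefficients of variation from 4.01% at Isl2 to 6.92% at Lhx9, and the highest library was at most 1.19-fold above the lowest. The libraries shared a direction across genes. Replicate 2 of the Wnt6 deletion, the deepest library, was the lowest at 7 of the 10 genes and replicate 3 of the Hoxa deletion at the other 3. Replicate 2 of the Hmx1 deletion was the highest at 5, replicate 1 of the Hoxa deletion at 3 and replicate 1 of the Hmx1 deletion, the shallowest library, at 2.

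Along the genes, H3K27me3 was highest at and around the listed starts. The 9 peaks that held a start had a median of 76.5 CPM per kb (61.8 to 153.7), 35 further peaks centred within 5 kb of a start had 54.5, 29 peaks between 5 and 15 kb had 37.3 and 20 peaks beyond 15 kb had 14.4. The 12 peaks of Lhx5 are not in these counts. Of all 105 peaks, 46 (43.8%) lay above the 95th percentile of all peaks (50.7 CPM per kb) and 5 below the median of all peaks (7.74). Peaks of the LIM homeobox genes were 237 to 2620 bp wide, with a median of 707 bp against 476 bp over the table.

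**Figure D2:**
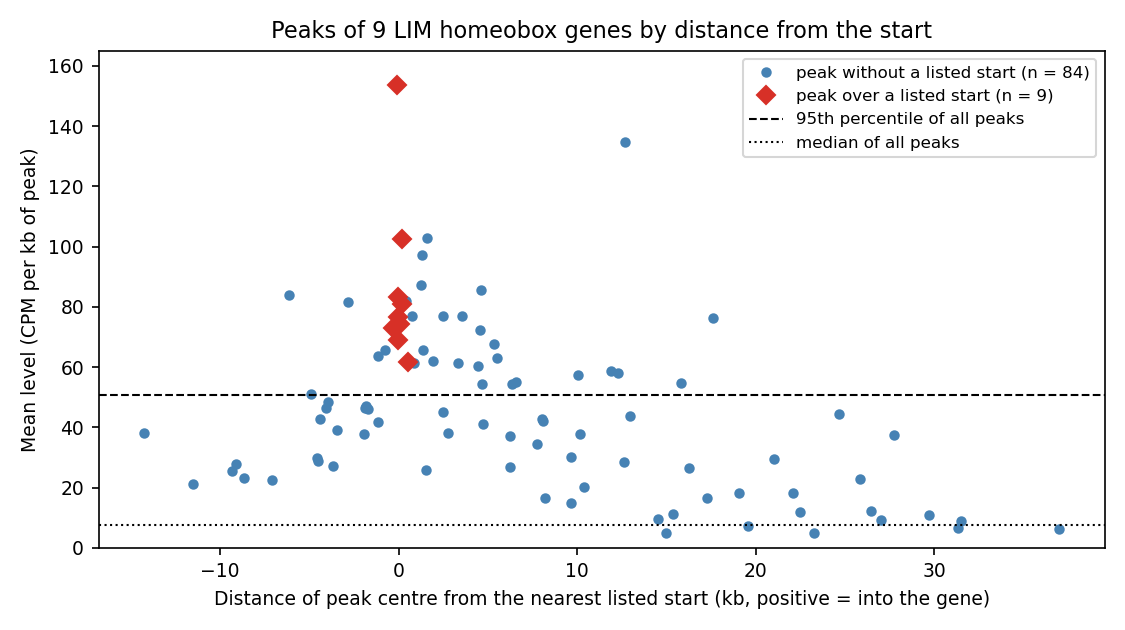
Mean level of each peak of 9 LIM homeobox genes over the 7 libraries (vertical axis, CPM per kb of peak) by the distance of its centre from the nearest listed start (horizontal axis, kb, positive into the gene). Diamonds are peaks over a start (n = 9), circles the other peaks (n = 84), and lines mark the 95th percentile (50.7) and the median (7.74) of all peaks. Diamonds lie at 61.8 or above, and levels decline into the gene.

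The strongest peak of all was at Isl2 (chr9:55540870-55541238), which covers the promoter printed above, with a mean of 153.7 CPM per kb (131.1 to 187.5 over the libraries). That was 30.2-fold above the weakest peak assigned to Isl2, which overlaps the gene Scaper. The strongest Lhx6 peak (chr2:36090906-36091853, 134.8 CPM per kb, 110.6 to 161.9) lay 12.7 kb inside the gene and held no listed start. Isl1 (chr13:116309188-116310272, 83.4 CPM per kb), Lhx1 (chr11:84525391-84525735, 69.1) and Lhx2 (chr2:38350576-38352407, 102.7, at a start within the gene) had theirs over a start. At Lhx9 (chr1:138847926-138849202, 83.9), Lhx3 (chr2:26205102-26205499, 87.3), Lhx4 (chr1:155736907-155737944, 85.7) and Lhx8 (chr3:154327397-154328797, 77.1) the strongest peak held no listed start, and at Lhx9 it lay over the 5′ end of the gene model. The strongest Lhx5 peak (chr5:120430798-120431516) had 106.0 CPM per kb. Lhx1 was the most even gene, with its strongest peak 2.49-fold above its weakest.

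The Hoxa deletion left the H3K27me3 sum of every LIM homeobox gene near that of the other deletions. Relative to the other deletions, log2 fold changes of the gene sums ran from -0.11 at Lhx9 to 0.05 at Lhx5, with 5 genes above and 5 below 0 and a median of -0.0037 (0.06 over all genes). With single libraries left out the median ran from -0.0385 without Wnt6 replicate 2 (8 genes below 0) to 0.0212 without Hmx1 replicate 2 (4 genes below 0), and against the Hmx1 deletion alone 9 genes were below 0. None of the 10 passed an adjusted p of 0.05 in edgeR's quasi-likelihood test (0.286 to 0.882), where 19.4% of all genes passed. An unadjusted p under 0.05 was found at 0 of the 10, and the share of all genes at that level is not given here. At single peaks, 0 of 105 met the call rule (absolute log2 fold change over 1 and adjusted p under 0.05), against 1.49% of all peaks outside the deleted stretch. With no fold minimum, 3 of 105 passed the adjusted p, against 8.47% of all peaks. All 3 were lower peaks of Lhx9, and 4.14% of all peaks both passed and were lower. An unadjusted p under 0.05 was found at 8 peaks (7.62%), all lower, against 20.7% of all peaks. The median log2 fold change of the 105 peaks was -0.02 (-0.0053 over all peaks), with quartiles of -0.12 and 0.05 against -0.22 and 0.20. No member lies on chromosome 6. Of the 7 pluripotency genes with peaks, Klf4 and Tfcp2l1 passed and were higher in the Hoxa deletion. Their log2 fold changes were 0.60 (edgeR adjusted p = 1.51e-06) and 0.84 (edgeR adjusted p = 0.000329). Zfp42 was lower without passing (-0.55, edgeR adjusted p = 0.115). None of the 7 fibroblast genes passed. The part of these genes in the values above was not tested.

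The Lhx9 peaks that were lower in the Hoxa deletion lie side by side inside the gene, downstream of its listed start. At chr1:138836665-138838782, 4.72 kb from the start, the Hoxa libraries had 77.3, 78.4 and 70.2 CPM, the Wnt6 libraries 96.2 and 87.7 and the Hmx1 libraries 97.0 and 100.5. The peak was 1.26-fold lower in the Hoxa deletion (log2 fold change -0.34 ± 0.09 SE, edgeR adjusted p = 0.00701). Every Hoxa library was below every other library here and at the next pair of peaks, and both Hmx1 libraries were above every other. In the Hmx1 deletion the log2 fold changes were 0.27 here, 0.48 at 138839739 and 0.49 at 138832492 (edgeR adjusted p 0.480, 0.382 and 0.464). A lower level in the Hoxa deletion and a higher one in the Hmx1 deletion cannot be told apart without unedited cells.

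At chr1:138839739-138840159, 2.50 kb from the start, the Hoxa libraries had 13.4, 16.0 and 16.4 CPM, the Wnt6 libraries 19.4 and 19.2 and the Hmx1 libraries 26.0 and 21.8. This peak was 1.38-fold lower (-0.47 ± 0.13 SE, edgeR adjusted p = 0.0115). At chr1:138832492-138833084, 9.66 kb from the start, the Hoxa libraries had 7.99, 6.34 and 6.70 CPM, the Wnt6 libraries 9.78 and 8.49 and the Hmx1 libraries 10.6 and 11.1. It was 1.44-fold lower (-0.52 ± 0.16 SE, edgeR adjusted p = 0.0252), and none of these folds reached the minimum of the call rule.

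**Figure D3:**
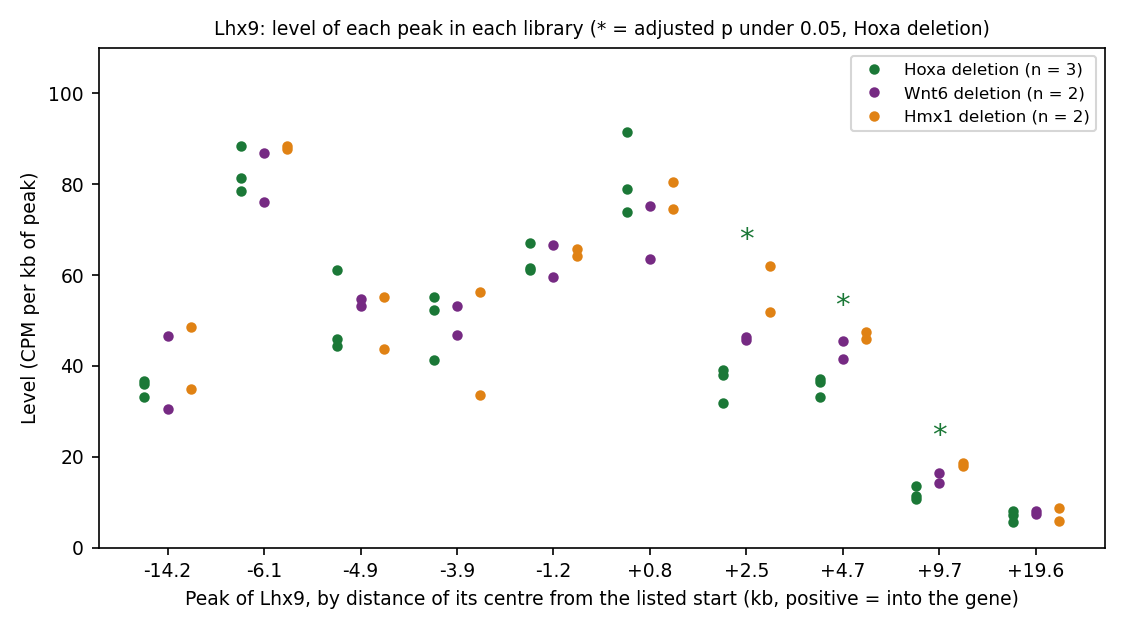
Level of each of the 10 Lhx9 peaks in each library (vertical axis, CPM per kb of peak, from 0), with peaks ordered by the distance of their centre from the listed start (horizontal axis, kb, positive into the gene). Points are libraries coloured by deletion, and asterisks mark the 3 peaks with an adjusted p under 0.05 in the Hoxa deletion. At these peaks all Hoxa points lie below all others and both Hmx1 points above all others, whereas at the other 7 peaks the colours overlap. The marked peaks were picked by their p in these data, so the separation is no added support.

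The other 7 Lhx9 peaks, among them the strongest of the gene and the one nearest the start, had log2 fold changes from -0.15 to 0.15 in the Hoxa deletion (edgeR adjusted p 0.436 to 0.956). The median over all chromosome 1 peaks was -0.0084. All 3 peaks stayed lower in each of 17 alternative fits and passed the threshold in 14 (138836665), 15 (138839739) and 12 (138832492) of them. None passed against the Wnt6 deletion alone (edgeR adjusted p 0.105, 0.192 and 0.244 in that order). The call of the peak at 138836665 also rested on Hoxa replicate 3 (adjusted p 0.0801 without it in edgeR), that at 138839739 on Hoxa replicate 1 (0.0837), and that at 138832492 on Hoxa replicate 2 (0.173), Hoxa replicate 3 (0.0715) and Hmx1 replicate 2 (0.134). The Lhx9 gene sum did not pass in the main fit. It passed without Wnt6 replicate 2 (log2 fold change -0.15, edgeR adjusted p = 0.0436) and against the Hmx1 deletion alone (-0.16, adjusted p = 0.0353). Of all genes, 3085 of 16998 passed in the former fit and 3718 of 16995 in the latter.

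Among the remaining peaks, the one with the smallest p on the higher side in the Hoxa deletion was just beyond the 3′ end of Lhx6 (chr2:36081291-36081833), with 5.76, 7.11 and 8.38 CPM in the Hoxa, 5.76 and 6.17 in the Wnt6 and 7.10 and 5.43 in the Hmx1 libraries (log2 fold change 0.26 ± 0.17 SE, edgeR adjusted p = 0.403). The libraries overlapped. The most extreme value was at a weak peak beyond Isl2 (chr9:55556017-55556265), which overlaps the protein-coding gene Scaper. It had 0.588, 0.611 and 1.22 CPM in the Hoxa, 1.03 and 1.33 in the Wnt6 and 2.03 and 2.01 in the Hmx1 libraries (-0.96 ± 0.40 SE, edgeR adjusted p = 0.135). This peak was picked after its values were seen.

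**Figure D4:**
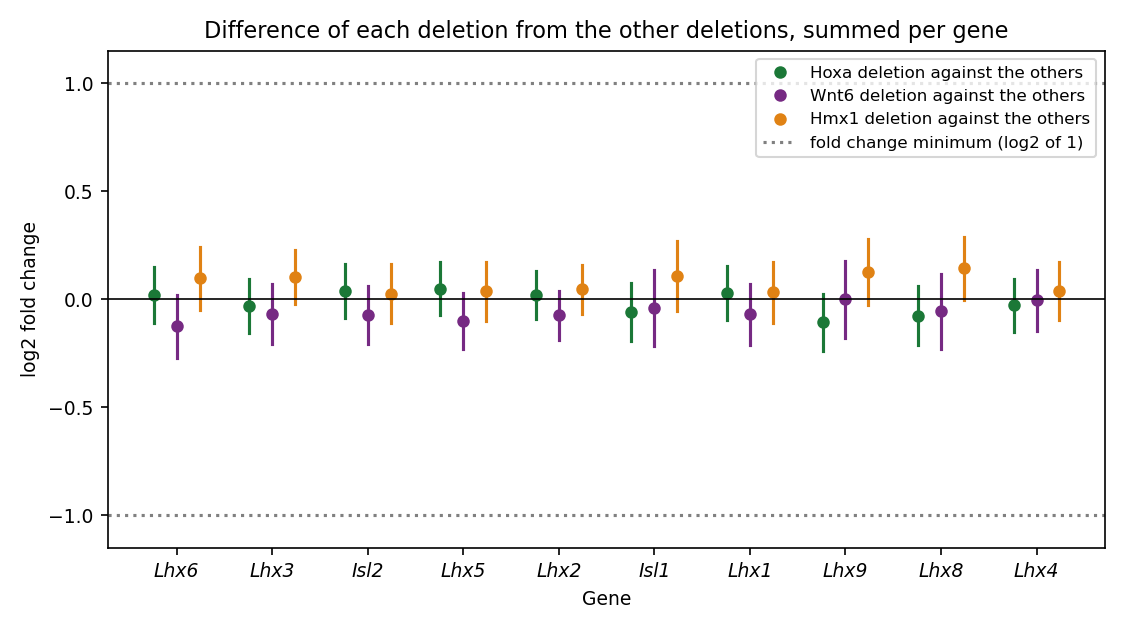
Log2 fold change of the summed counts of each LIM homeobox gene in each deletion against the other deletions pooled (vertical axis), with genes in the order of their levels (horizontal axis). Points are edgeR estimates, bars 95% confidence intervals, and dotted lines the fold minimum of the call rule (log2 of 1). All 30 intervals lie between -0.27 and 0.29, and the deletions share controls, so the colours at a gene are not independent.

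The Wnt6 deletion also left the LIM homeobox genes within narrow bounds of the others. Gene sums had log2 fold changes from -0.13 at Lhx6 to -0.00066 at Lhx9, with a median of -0.07 (-0.04 over all genes). All 10 values were below 0, against 8 of 10 when libraries were scaled by their totals alone, 7 of 10 without the deepest library, Wnt6 replicate 2, and 6 of 10 against the Hoxa deletion alone. Without Wnt6 replicate 2 the median was -0.0136. None passed an adjusted p of 0.05 in edgeR (0.874 to 0.9996), where 0.0412% of all genes passed. At the unadjusted level 0 had a p under 0.05, with the share of all genes not given here. Of the 105 peaks, 0 met the call rule (0.00403% of all peaks outside the deleted stretch) and 0 the adjusted p alone (0.0108%), and 0 had an unadjusted p under 0.05, against 5.16% of all peaks. The median log2 fold change of the peaks was -0.06 (-0.0024 over all peaks).

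Lhx9 and Lhx4 share chromosome 1 with the Wnt6 deletion, at 63.9 and 80.8 Mb from the deleted stretch. Their log2 fold changes were -0.00066 (95% confidence interval -0.18 to 0.18, edgeR adjusted p = 0.9996) and -0.0053 (-0.15 to 0.14, adjusted p = 0.991), the values closest to 0 of the 10. Peaks of both genes had a median log2 fold change of 0.06, against -0.0018 over chromosome 1. The smallest p values on either side were those of an Lhx4 peak (chr1:155724549-155724899, 0.41 ± 0.21 SE) and of the Lhx2 peak over its first start (chr2:38338910-38339978, -0.18 ± 0.10 SE), both with an edgeR adjusted p of 0.920. The Lhx4 peak had 6.38 and 7.89 CPM in the Wnt6, 4.70, 5.50 and 4.77 in the Hoxa and 4.56 and 7.12 in the Hmx1 libraries. The Lhx2 peak had 82.43 and 75.02 CPM in the Wnt6, 98.7, 85.4 and 83.6 in the Hoxa and 90.8 and 88.3 in the Hmx1 libraries. The groups overlapped at Lhx4 and did not at Lhx2. Of the 105 peaks, 11 did not overlap in the Wnt6 deletion, and the share over all peaks is not given here. Both peaks were picked by their p, so the separation at Lhx2 is no added support.

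In the Hmx1 deletion the gene sums lay slightly on the other side. Log2 fold changes ran from 0.03 at Isl2 to 0.14 at Lhx8, with a median of 0.07 (-0.04 over all genes). All 10 were above 0, against 9 of 10 with library totals alone (median 0.0409) and 8 of 10 without Hmx1 replicate 2. Without Wnt6 replicate 2 the median was 0.0475. None passed an adjusted p of 0.05 in edgeR (0.344 to 0.886), where 0.0706% of all genes passed. At the unadjusted level 0 had a p under 0.05, with the share of all genes not given here. At Lhx8, where both Hmx1 libraries were the highest, the 95% confidence interval was -0.0021 to 0.29. Of the 105 peaks, 0 met the call rule (0.0134% of all peaks outside the deleted stretch) and 0 the adjusted p alone (0.0161%). An unadjusted p under 0.05 was found at 7 peaks (6.67%), all higher, against 8.94% of all peaks.

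The median log2 fold change of the 105 peaks in the Hmx1 deletion was 0.08, against -0.0060 over all peaks. Other strongly marked peaks had similar values. The 3677 other peaks above the 95th percentile of level had medians of 0.09 in the Hmx1, -0.06 in the Wnt6 and -0.02 in the Hoxa deletion, and the 46 LIM homeobox peaks above it had 0.07, -0.08 and 0.03. Lhx5 shares chromosome 5 with the Hmx1 deletion, 85.0 Mb from the deleted stretch, and had a log2 fold change of 0.04 (95% confidence interval -0.10 to 0.17, edgeR adjusted p = 0.817). The smallest p on the higher side was at the Lhx9 peak at 138839739 described above (0.48 ± 0.16 SE, edgeR adjusted p = 0.382), in a comparison whose other side holds the Hoxa libraries. On the lower side it was an Lhx4 peak at chr1:155704506-155705528, with 6.09 and 5.39 CPM in the Hmx1, 6.23, 6.53 and 7.15 in the Hoxa and 7.41 and 6.66 in the Wnt6 libraries (-0.27 ± 0.19 SE, edgeR adjusted p = 0.712).

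By chromosome, the medians of the LIM homeobox peaks stayed within 0.22 of 0 on the log2 scale in all deletions. The largest was that of the 12 Lhx8 peaks on chromosome 3 in the Hmx1 deletion (0.21, against 0.02 over all chromosome 3 peaks), followed by Isl1 on chromosome 13 in the same deletion (0.14 against -0.04), Lhx8 in the Hoxa deletion (-0.13 against -0.0088) and Lhx5 on chromosome 5 in the Wnt6 deletion (-0.13 against -0.0064). The 34 peaks of Lhx2, Lhx3 and Lhx6 on chromosome 2 had medians of 0.0066, -0.07 and 0.08 in the Hoxa, Wnt6 and Hmx1 deletions.

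Precision at the gene level was sufficient to bound the differences. The 95% confidence intervals of all 30 gene sums lay between -0.27 and 0.29, that is, between 1.21-fold lower and 1.22-fold higher, for the given libraries and scaling.

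The genes with which LIM homeobox factors work were marked to different degrees. The other LIM homeobox genes, Lmx1a (37.2 CPM per kb) and Lmx1b (52.5), lay within the range of the 10. Among 10 cofactor and LIM-only genes the median was 13.4 CPM per kb. The cofactor Ldb1 had 5.22 and the LIM-only genes, whose products compete for Ldb1, ranged widely, with Lmo2 and Lmo1 at 52.4 and 37.4, with Lmo4 at 28.3 and Lmo3 at 14.2. Among 8 partner and target genes the median was 46.8, with Neurog2 (69.9), which acts with Isl1 and Lhx3 in motor neuron specification, and their target Mnx1 (68.6) near the Lhx3 level. In these lists 0 of 20 genes passed an edgeR adjusted p of 0.05 in any deletion, where 19.4% of all genes passed in the Hoxa, 0.0412% in the Wnt6 and 0.0706% in the Hmx1 deletion.

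Over the 7 libraries, the summed log2 CPM of the 10 genes varied by 0.18 from lowest to highest. Of 16965 other genes, those whose log2 CPM followed it closely included Slc43a1 (Pearson r = 0.992), Gnal (0.991), Dlx6 (0.989) and Ncdn (0.989), and 258 genes had r above 0.9. All points share the same 7 libraries and their scaling, and these r are a description.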

How the data were processed

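H3K27me3 Cut&Tag counts of 7 libraries were analysed. The 7 IgG libraries were not analysed here, and no background was subtracted. Raw counts for 1 list of peaks, common to all libraries, were deposited by the authors with no normalization. The submitters' processing notes name Bowtie2, Trimmomatic, SAMtools, Picard, MACS2, deepTools and mm10, without roles or versions. How the peak list was made and whether duplicates were removed are not given in the sources used here, and if it was called on part of the libraries, peaks strong in those are favoured.

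Groups came from sample titles. The members and gene lists were chosen with earlier results of these data known. Peaks within 10 kb of RefSeq GRCm38.p6 gene bodies were assigned to genes. Counts were fitted over all peaks, and over sums per protein-coding gene, with edgeR 4.0.16 (glmQLFit, glmQLFTest, TMM factors, filterByExpr by genotype) in R 4.3.3, each deletion against the others pooled. P-values were Benjamini-Hochberg adjusted over all peaks or genes, the call rule for peaks was an adjusted p under 0.05 with a log2 fold change above 1 in size, and standard errors came from the F statistic. All 105 member peaks passed the filter. Background percentages of peaks leave out the deleted stretch, the longest run of peaks emptied in every library of that deletion. Those of genes are over all 16999 genes and include genes at the deleted locus. Fits were also run on simulated counts, with the same relative spread for every feature and planted changes larger than the gene-sum differences above. The outcome is not reported here, and such counts cannot vouch for the intervals.

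Named peaks were the strongest of each gene, called peaks and otherwise the smallest p in each direction; the lower Lhx9 peaks were all those past the adjusted p alone. The most similar genes were the 5 with the highest Pearson r over the libraries, of which 1 is not reported here. Levels are TMM-scaled CPM per kb of peak. Peak starts are printed as deposited, with their convention (0 or 1) not stated, and the strand comes from the RefSeq promoter table. Exons were not assigned. Alternatives were DESeq2 1.42.0, RLE factors, library totals, other filters, separate genotype terms, single deletions as the comparison, a replicate block, offsets by chromosome, each library left out, other windows, no fold minimum and the strongest peak alone.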

Additional observations from a re-analysis of the deposited data

How the results depend on the processing

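The counts of called peaks (0 in each deletion), of genes past the threshold (0 in each) and the median peak log2 fold changes held in 159 alternative values and moved in 7. The median in the Hoxa deletion moved from -0.02 to -0.0819 against the Hmx1 deletion alone, and in the Hmx1 deletion from 0.08 to 0.0441 with library totals alone and to 0.11 against the Wnt6 deletion alone. Against the Hmx1 deletion alone, 1 gene (Lhx9) passed in the Hoxa deletion, where 3718 of all 16995 genes passed. The same contrast read from the other side gave 1 in the Hmx1 deletion. With no fold minimum 3 peaks of Lhx9 passed in the Hoxa deletion. Each library was also left out in turn. Counts were read only where the deletion kept at least 2 libraries, so not for Wnt6 or Hmx1 libraries in their own deletion. Genes past the threshold numbered 0 to 1 in the Hoxa deletion and 0 in the others. The 1 was Lhx9 without Wnt6 replicate 2, where 3085 of all 16998 genes passed. Called peaks were 0 in each of these fits. Medians ran from -0.05 to -0.0012 in the Hoxa, -0.10 to -0.01 in the Wnt6 and 0.06 to 0.10 in the Hmx1 deletion. For single genes, 548 values kept their side of the threshold or stayed within the spread, 49 levels or differences moved and 3, all of Lhx9, passed the threshold only in the alternative. The cause of these shifts was not tested.

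Deviations of same-numbered libraries had r from -0.04 to 0.08 over all peaks and from -0.16 to 0.34 over the LIM homeobox peaks. With 2 libraries in a group the deviations mirror each other, so these r cannot decide whether the numbers mark a pairing. Depth went with the number, with 8656908, 9982841 and 6016500 counts in replicate 1 of the Hoxa, Wnt6 and Hmx1 deletions. Replicate 2 had 25595584, 36563541 and 25798208. The labels state no pairing, and the main fits used none. With the replicate number as a block, called peaks and genes past the threshold stayed at 0, medians were -0.02, -0.06 and 0.09 in the Hoxa, Wnt6 and Hmx1 deletions, and of the Lhx9 peaks in the Hoxa deletion the one at 138839739 alone passed (adjusted p in edgeR 0.0741 at 138836665 and 0.0738 at 138832492).

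Counts over all features, by which the background shares are read, moved far more. Peaks past the adjusted p, deleted stretches included, numbered 6345 in the Hoxa (3157 to 6970 over 17 alternatives), 42 in the Wnt6 (36 to 4083) and 23 in the Hmx1 deletion (18 to 4830), and called peaks 1153 (500 to 1270), 37 (35 to 969) and 21 (18 to 1270). Genes past it numbered 3293 (2205 to 5316 over 19 alternatives), 7 (6 to 2544) and 12 (2 to 3718). The upper ends in the Wnt6 and Hmx1 deletions are fits against the Hoxa deletion alone, the Hoxa contrasts read from the other side. The next highest counts past the adjusted p came with separate genotype terms. They were 426 peaks and 611 genes in the Wnt6 and 1227 peaks and 1841 genes in the Hmx1 deletion. With 2 or 3 libraries a group, gene sums were bounded to at worst 0.18 on the log2 scale on either side of the estimate.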
